A study of Mus musculus with 125 samples.

Results

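Open chromatin of endothelial nuclei from the P6 mouse brain was set against that of all nuclei of the same organ. The comparison uses 6 of the 66 ATAC-seq libraries of the series, 3 endothelial and 3 input ones. ATAC-seq reads DNA that a transposase can reach. Each library is represented by the authors' list of peaks, and the 27160 peaks with the highest −log10 q-value were kept from each, since the shortest list holds that many. Overlapping peaks of the 6 lists were merged into 62963 regions. A region was taken as endothelial-only when at least 2 endothelial libraries and no input library had a top peak in it, and as input-only in the reverse case. Of the 62963 merged regions, 8685 (13.8%) were endothelial-only and 5935 (9.43%) were input-only, while 9019 had a top peak in all 6 libraries. With the full lists, which differ in length, the order of the classes turned, with 14188 endothelial-only and 23638 input-only regions. The rule chose these regions from the same peaks, so their number is a description and carries no test, and 3 libraries against 3 allow no exact two-sided p below 0.1 for any single region.

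The study compares endothelial nuclei of several mouse organs with input nuclei of the whole tissue, in embryos, young postnatal mice and adults. Both groups used here are brain tissue labelled P6, and both received tamoxifen, 0.015 mg/kg by subcutaneous injection on postnatal days 1 and 3, which induces the GFP reporter by which vessels were checked. The labels call the age P6, while their protocol places the collection on postnatal day 7. The strain, the driver of the reporter and the step that separates the GFP-bearing nuclei are not given in the sources used here, nor is the number of animals behind a library. Differences between libraries of a group may therefore be technical, and every p-value below measures only the spread between libraries. Input nuclei include the endothelial ones, so an endothelial region can also be open in the input at a lower rank.

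Brain endothelial cells line the capillaries and form the blood-brain barrier. They are sealed by tight junctions, carry glucose, amino acids and fatty acids inward through dedicated transporters, and pump drugs outward. Wnt signalling from neural cells through Frizzled receptors and beta-catenin drives this barrier programme, while endothelial identity in all organs rests on factors of the ETS, SOX and forkhead families. An endothelial enhancer or promoter is accessible to a transposase where such factors hold the DNA free of nucleosomes.

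The promoters of 6 genes covered by an endothelial-only region, and of 2 genes covered by an input-only region, are shown as examples. Each window is 250 bases before to 50 after a RefSeq start on GRCm38.p6, read 5′ to 3′ on the strand of the gene. Capitals mark AGGAAG, a core of ETS factor sites, on either strand in the endothelial windows, and CAGATG or CAGCTG, E-boxes read by neural bHLH factors, in the neuronal ones. Tie1 encodes an endothelial receptor tyrosine kinase and its window lies at chr4:118489800-118490099, minus strand. Egfl7, a secreted vascular protein, has its window at chr2:26583615-26583914, plus strand. Eng encodes endoglin, a TGF-beta co-receptor, with its window at chr2:32646345-32646644, plus strand. Robo4, an endothelial guidance receptor, has its window at chr9:37401722-37402021, plus strand. Abcb1a encodes the drug pump P-glycoprotein, with its window at chr5:8566841-8567140, plus strand. Cldn5 encodes claudin 5, the main claudin of the barrier, with its window at chr16:18776597-18776896, plus strand, and its window holds no AGGAAG. Neurod2 and Neurod6 encode bHLH factors of neurons, with windows at chr11:98329596-98329895 and chr6:55681214-55681513, both on the minus strand. The Neurod6 window holds neither E-box. The examples do not give the frequency of the letters, since AGGAAG was in 43.0% of all 540 endothelial-only windows. Among windows not shown, those of Flt1 and Erg hold AGGAAG and those of Kdr, Tek and Dll4 hold none. The input-only window of Pax6, also not shown, holds neither E-box. The Tie1 and Eng windows hold 1 CAGATG each and the Robo4 window 1 CAGCTG, left in lower case, so E-boxes do not set the printed windows of the 2 classes apart.
Tie1: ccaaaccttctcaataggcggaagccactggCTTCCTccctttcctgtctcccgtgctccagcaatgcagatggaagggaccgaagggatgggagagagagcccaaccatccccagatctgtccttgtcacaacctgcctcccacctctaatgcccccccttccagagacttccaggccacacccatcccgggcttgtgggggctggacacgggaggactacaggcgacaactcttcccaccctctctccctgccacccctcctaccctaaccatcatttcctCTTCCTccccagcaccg
Egfl7: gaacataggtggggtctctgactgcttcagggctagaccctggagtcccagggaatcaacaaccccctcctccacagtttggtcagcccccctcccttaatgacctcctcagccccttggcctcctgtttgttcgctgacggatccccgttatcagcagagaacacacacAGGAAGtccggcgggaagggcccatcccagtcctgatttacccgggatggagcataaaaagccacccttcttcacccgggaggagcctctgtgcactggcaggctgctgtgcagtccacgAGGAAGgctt
Eng: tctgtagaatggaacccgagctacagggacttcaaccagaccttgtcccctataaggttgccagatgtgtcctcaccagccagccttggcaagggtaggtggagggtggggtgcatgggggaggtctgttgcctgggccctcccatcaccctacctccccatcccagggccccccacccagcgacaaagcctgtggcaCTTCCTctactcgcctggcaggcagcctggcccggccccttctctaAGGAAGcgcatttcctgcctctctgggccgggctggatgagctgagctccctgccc
Robo4: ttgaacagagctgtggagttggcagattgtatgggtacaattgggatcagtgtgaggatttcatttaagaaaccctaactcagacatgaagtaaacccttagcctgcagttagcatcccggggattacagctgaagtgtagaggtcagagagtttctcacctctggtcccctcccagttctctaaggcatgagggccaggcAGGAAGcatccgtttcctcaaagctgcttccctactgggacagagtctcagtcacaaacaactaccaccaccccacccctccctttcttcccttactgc
Abcb1a: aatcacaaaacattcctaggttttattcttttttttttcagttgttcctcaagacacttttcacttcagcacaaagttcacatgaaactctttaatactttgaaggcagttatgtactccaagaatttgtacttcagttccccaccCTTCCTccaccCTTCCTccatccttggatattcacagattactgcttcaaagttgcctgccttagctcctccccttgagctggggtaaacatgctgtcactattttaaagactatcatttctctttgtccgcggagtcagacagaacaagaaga
Cldn5: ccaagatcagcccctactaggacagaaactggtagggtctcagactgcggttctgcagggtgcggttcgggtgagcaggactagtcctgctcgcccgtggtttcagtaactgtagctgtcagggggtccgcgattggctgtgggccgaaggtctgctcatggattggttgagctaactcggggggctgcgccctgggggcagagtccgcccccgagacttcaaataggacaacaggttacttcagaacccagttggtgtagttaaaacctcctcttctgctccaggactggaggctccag
Neurod2: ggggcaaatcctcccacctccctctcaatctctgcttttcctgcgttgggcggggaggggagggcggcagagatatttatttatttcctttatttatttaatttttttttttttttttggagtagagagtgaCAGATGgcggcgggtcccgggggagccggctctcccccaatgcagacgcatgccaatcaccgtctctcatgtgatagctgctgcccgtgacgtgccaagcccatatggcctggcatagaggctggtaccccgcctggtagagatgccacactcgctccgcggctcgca
Neurod6: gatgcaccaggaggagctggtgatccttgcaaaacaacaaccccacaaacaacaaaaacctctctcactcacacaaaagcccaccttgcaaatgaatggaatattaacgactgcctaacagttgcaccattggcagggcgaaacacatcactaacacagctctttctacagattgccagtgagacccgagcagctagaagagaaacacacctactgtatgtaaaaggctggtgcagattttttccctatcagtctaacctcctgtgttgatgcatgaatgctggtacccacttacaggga

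The fold that the authors' peak caller gave over local background, in each library, shows how these promoters differed. At the Tie1 promoter the peak had a fold of 6.82, 8.53 and 9.88 in endothelial libraries 1, 2 and 3. Input 2 held a lower-ranked Tie1 peak of 4.71, and inputs 1 and 3 held none. The Abcb1a promoter peak had a fold of 4.66, 5.02 and 4.44 in the 3 endothelial libraries, and the full list of no input library had a peak there. At Cldn5 the promoter region had a fold of 4.85, 4.57 and 3.59 in the endothelial libraries and of 3.24, 2.81 and 2.67 at lower rank in inputs 1, 2 and 3. These peaks are among those by which the rule chose the regions, so the folds are a description. The Neurod6 promoter peak had a fold of 4.06, 5.67 and 4.28 in the 3 inputs and of 4.37 in endothelial 2, at lower rank, with none in endothelial 1 and 3. At Neurod2 the folds were 4.67, 4.62 and 4.00 in the inputs and 4.62 in endothelial 2, so this library overlapped the inputs at both neuronal promoters. Folds are each library's own values and were not scaled between libraries.

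The 6 libraries were not alike within a group. The headers count 19.1 to 20.2 M tags (M for mega) kept in the endothelial libraries and 19.9, 31.7 and 32.5 M in inputs 1, 2 and 3. The lists hold 27160, 87133 and 79903 peaks in endothelial 1, 2 and 3, and 131710, 94724 and 71759 in the inputs. The lowest −log10 q-value kept was 1.00 in endothelial 1, whose list was used whole, and 5.81 to 10.3 in the other 5. The share of regions with a top peak in either of a pair that had one in both (Jaccard index) was 0.511 to 0.605 between endothelial libraries and 0.671 between inputs 2 and 3. Input 1 stood apart, with an index of 0.322 and 0.350 to the other inputs, and 12112 of its regions (44.6%) were in no other library, against 7.96 to 15.7% elsewhere. Endothelial 2 was closer to inputs 2 and 3 (0.493 and 0.489) than endothelial 1 (0.335 and 0.346) or endothelial 3 (0.370 and 0.379) was. The aligned files named in the headers show 1 kind of read processing for endothelial 1 and 2 and another for endothelial 3 and all inputs, and the submitters state that the signal tracks of endothelial 1 and 2, which are not used here, were later replaced. The part of read processing and of library quality in the results was not tested.

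Most endothelial-only regions came from endothelial 1 and 3. All 3 endothelial libraries held 3937 of the 8685, replicates 1 and 3 alone held 3272, replicates 2 and 3 held 914, and replicates 1 and 2 held 562. Among the 5935 input-only regions, 1503 were in all 3 inputs and 2996 in inputs 2 and 3 alone. Equal list length sets a rank, not absence: 5805 endothelial-only regions (66.8%) had a lower-ranked peak in the full list of an input, and 4932 input-only regions (83.1%) had one in an endothelial list. The regions held by all 3 libraries of their side and absent from every full list of the other numbered 817 endothelial and 211 input regions. Leaving out endothelial 1 or 3 gave 4851 and 4505 endothelial-only regions, and leaving out input 2 or 3 gave 2540 and 1904 input-only regions, since both of the remaining 2 libraries then have to hold the peak.

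**Figure D1:**
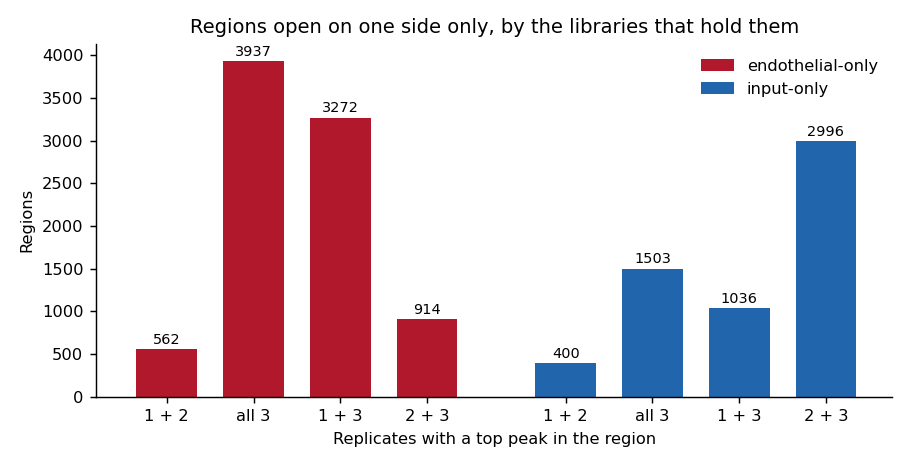
Number of regions (vertical axis) by the replicates of their side that hold a top peak (horizontal axis), red for endothelial-only and blue for input-only regions. The highest endothelial bar is the 3937 regions of all 3 replicates, and the highest input bar is the 2996 regions of replicates 2 and 3 alone.

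Both classes lay mainly away from gene ends. Of the endothelial-only regions 8.66% were within 1 kb of an end of a protein-coding gene, of the input-only regions 5.12%, and of all merged regions 18.5%, against 73.3% of those in all 6 libraries. The median distance to the nearest gene end was 22.3 kb for endothelial-only and 41.3 kb for input-only regions, against 21.6 kb over all regions and 0.208 kb for those in all 6 libraries. Endothelial-only regions lay inside a gene in 54.5% of cases and input-only regions in 45.5%, against 52.3% of all regions.

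The nearest protein-coding genes of the endothelial-only regions numbered 4830 of 21883 (22.1%), those of the input-only regions 3706 (16.9%), and 1632 genes (7.46%) were nearest to regions of both classes. Without endothelial 3 the nearest genes of endothelial-only regions numbered 3164, and without input 2 or 3 those of input-only regions numbered 1949 and 1535. Nearness to a region does not show that it regulates the gene, and long genes and genes in wide gaps collect more regions. Of 28 general endothelial genes, 27 were nearest to an endothelial-only region and 8 to an input-only one, with 114 and 12 regions in all. Kdr, the main VEGF receptor, had 9 endothelial-only regions, Cdh5 (VE-cadherin) 8, and Flt1 (a VEGF receptor), Tek (the angiopoietin receptor), Fli1 (an ETS factor) and Cldn5 had 7 each. None of Kdr, Tek, Fli1 and Cldn5 had an input-only region, while Cdh5 had 2 and Flt1 had 1. The exception was Myct1, which had regions of neither class. Without endothelial 3 the list kept 61 endothelial-only regions, the fewest when any library was left out, over at least 25 genes, and without input 3 it kept 6 input-only ones.

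Counts of barrier genes are read beside the 22.1% of all protein-coding genes with an endothelial-only and the 16.9% with an input-only region. All 8 genes of efflux and organic anion transport were nearest to an endothelial-only region and 3 (37.5%) to an input-only one, with 25 and 3 regions. Abcc4, a nucleotide and drug exporter, had 7, Abcb1a had 5, and Slco1c1, the thyroxine transporter, had 1. Among 12 nutrient transporters, 8 (66.7%) had an endothelial-only and 3 (25.0%) an input-only region. Slc6a6 (taurine) had 5 endothelial-only regions, Slc2a1 (the glucose transporter GLUT1) 4, and Slc38a3 (glutamine) and Slc7a1 (cationic amino acids) 3 each. Slc7a5 and Slc3a2, which together form the large neutral amino acid transporter, Mfsd2a, the lipid transporter, and Slc38a5 had none. Slc2a1 also had 2 input-only regions, at chr4:119077267-119077699 and chr4:119138202-119138579. Of 10 tight junction genes, 9 (90.0%) had endothelial-only regions and Marveld2 alone an input-only one, with 7 endothelial-only regions each at Cldn5 and Tjp1, the scaffold ZO-1, and 4 at Ocln (occludin). These counts were lower without endothelial 1 or 3: at least 15 regions remained for efflux, 11 for nutrient transport and 21 for tight junctions. Of the input-only regions 1 remained for efflux without input 2, 3 for nutrient transport without input 3 and 0 for tight junctions without input 1.

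Of 22 Wnt receptors and targets, 20 (90.9%) had an endothelial-only and 8 (36.4%) an input-only region, with 56 and 9 regions, so both shares were above the 22.1 and 16.9% of all genes. The transcription factor gene Foxq1 had 7 endothelial-only regions, Lef1, the nuclear partner of beta-catenin, had 6, Apcdd1, a Wnt inhibitor induced by the pathway, had 5, and Lrp5 (co-receptor), Ctnnb1 (beta-catenin) and Tcf7 had 4 each. Fzd4, the Norrin receptor, and Notum had regions of neither class. Foxl2, a forkhead gene, had 2 regions, and the one at chr9:98942610-98943219 had a fold of 6.28, 7.26 and 7.26 in endothelial libraries 1, 2 and 3 and of 3.46, at lower rank, in input 2 only. Without endothelial 3 the list kept 29 endothelial-only regions, and without any 1 library at least 15 of its genes had one. Without input 3 the list kept 2 input-only regions.

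Of all protein-coding genes 22.1% had an endothelial-only and 16.9% an input-only region, beside which the next lists are read. Sprouting genes had endothelial-only regions at 12 of 12 members and input-only ones at 6 (50.0%), with 30 and 6 regions. Apln, the apelin peptide of tip cells, its receptor gene Aplnr, Angpt2 and Flt4 had 4 each. Notch and arterial genes had endothelial-only regions at 12 of 14 (85.7%), led by the Notch ligand Jag1 with 8, and input-only ones at 6 (42.9%). Of 8 venous genes, 3 (37.5%) had an endothelial-only and 4 (50.0%) an input-only region, with 6 regions of each class. Without endothelial 1 the sprouting genes kept 12 endothelial-only regions, and without endothelial 3 the arterial genes kept 8 and the venous genes 1. Without input 3 the input-only regions numbered 2, 1 and 1 in the sprouting, arterial and venous lists. With 1 library left out the genes with an endothelial-only region numbered as few as 7, 6 and 1, and those with an input-only region 2, 1 and 1.

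Of 24 neuronal genes, 15 (62.5%) had an input-only and 8 (33.3%) an endothelial-only region, with 34 and 9 regions, so both shares were above the 16.9 and 22.1% of all protein-coding genes. Stmn2, Map2 and Grin2b (a glutamate receptor subunit) had 4 input-only regions each. Without input 2 or input 3 the neuronal genes with an input-only region numbered 7 and 6. Without endothelial 3 the neuronal list kept 4 endothelial-only regions, and leaving out 1 library left as few as 4 of its genes with one. Without input 3 the list kept 7 input-only regions and had 11 endothelial-only ones, so the order of the 2 classes turned there. Both remaining inputs then have to hold the peak, so the loss of the library and the stricter rule cannot be told apart. Genes of neural progenitors and astrocytes had 25 regions of each class. An endothelial-only region was at 8 of these 16 genes (50.0%) and an input-only one at 8 (50.0%), both above the shares of all genes. Leaving out 1 library left as few as 5 and 3 of them. Sox2, the stem cell factor, had 8 input-only and no endothelial-only region, while Gja1 (connexin 43), which many cell types use, had 9 endothelial-only regions and no input-only one. Sox9 had 3 endothelial-only and 1 input-only regions, Sox1 2 and 0, Nfia 4 and 5, Nfib 3 and 4, and Slc1a3 2 and 3. Without input 3 Sox2 kept 2 input-only regions and the progenitor and astrocyte list 5, and without endothelial 1 that list kept 11 endothelial-only ones. Oligodendrocyte genes had 5 of 12 and cerebellar granule cell genes 3 of 9 with an input-only region, against 2 and 1 with an endothelial-only one. Leaving out 1 library took the genes with an input-only region to as few as 2 and 0, and their regions from 8 to 3 and from 6 to 0 without input 2.

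Markers of other cells that an endothelial preparation could hold are read against the 22.1% of all protein-coding genes that were nearest to an endothelial-only region. Mural cell genes had one at 1 of 12 (8.33%), and blood genes at 0 of 6. Of 12 microglia and leukocyte genes 3 (25.0%) had one, near that share, and 2 had an input-only region. Ptprc, the leukocyte surface phosphatase CD45, held 7 of the 10 endothelial-only regions and also had 3 input-only ones. No endothelial library had a top peak within 5 kb of an end of Ptprc, while at least 1 input did. Of the 12 microglia and leukocyte genes, 5, 6 and 5 had such a peak in endothelial 1, 2 and 3, and 2, 5 and 4 in the inputs. Without endothelial 1 this list kept 6 endothelial-only regions. The RNA level of Ptprc in the P8 cortex library described with the other RNA values was 3.15 counts per 1000000 UMIs (CPM). Of 8 fibroblast genes 5 (62.5%) had an endothelial-only region and 2 an input-only one, and the genes with a peak within 5 kb in endothelial 1, 2 and 3 numbered 6, 4 and 5, against 1, 3 and 3 in the inputs. Leaving out 1 library left as few as 2 fibroblast genes with an endothelial-only region. The pericyte genes Rgs5, Kcnj8, Abcc9 and Higd1b had no top peak within 5 kb in any of the 6 libraries, so they do not separate the groups. The mural genes Notch3 and Myh11 had one in at least 1 endothelial library and in no input. Acta2 went the other way, with one in at least 1 input and in no endothelial library. Of the 12 mural genes, 4, 5 and 5 had a peak within 5 kb in endothelial 1, 2 and 3, and 2, 5 and 3 in the inputs. The part of fibroblasts and mural cells in the endothelial-only regions was not tested.

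Counting genes with a top peak within 5 kb of an end checked the labels in each library. Of all 21883 protein-coding genes, 58.8, 59.8 and 57.8% had such a peak in endothelial 1, 2 and 3, and 50.03, 57.3 and 59.5% in inputs 1, 2 and 3, which is the level beside which the lists are read. Of 28 general endothelial genes, 25, 19 and 25 had such a peak in endothelial 1, 2 and 3, and 6, 6 and 7 in inputs 1, 2 and 3. The difference of the means was 16.7 genes, 5.00 with a 50 kb window and 5.67 with full lists. The 2 groups did not overlap at 5 kb, and 18 of these genes, Cdh5, Tie1, Fli1 and Sox17 among them, had none in any input. Emcn and Erg had none in any endothelial library either, though an Erg promoter window that lies inside the gene, away from its outer ends, was covered by an endothelial-only region. Sprouting genes had a peak at 11, 8 and 9 of 12 in the endothelial libraries and at 2, 3 and 4 in the inputs. Tight junction genes had one at 9 of 10 in each endothelial library and at 4, 6 and 6 in the inputs. Neuronal genes had a peak at 13, 14 and 12 of 24 in the endothelial libraries and at 13, 17 and 19 in the inputs, where input 1 overlapped the endothelial group. In the endothelial libraries neuronal genes were thus no more often near a peak than all protein-coding genes. Neurod2, Neurod6, Tbr1 and Rbfox3 were among the 8 neuronal genes with none in any endothelial library. Input 1 had a peak at 5 of 22 Wnt genes against 14 and 16 in inputs 2 and 3, and at 4 of 16 progenitor genes against 11 and 12.

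**Figure D2:**
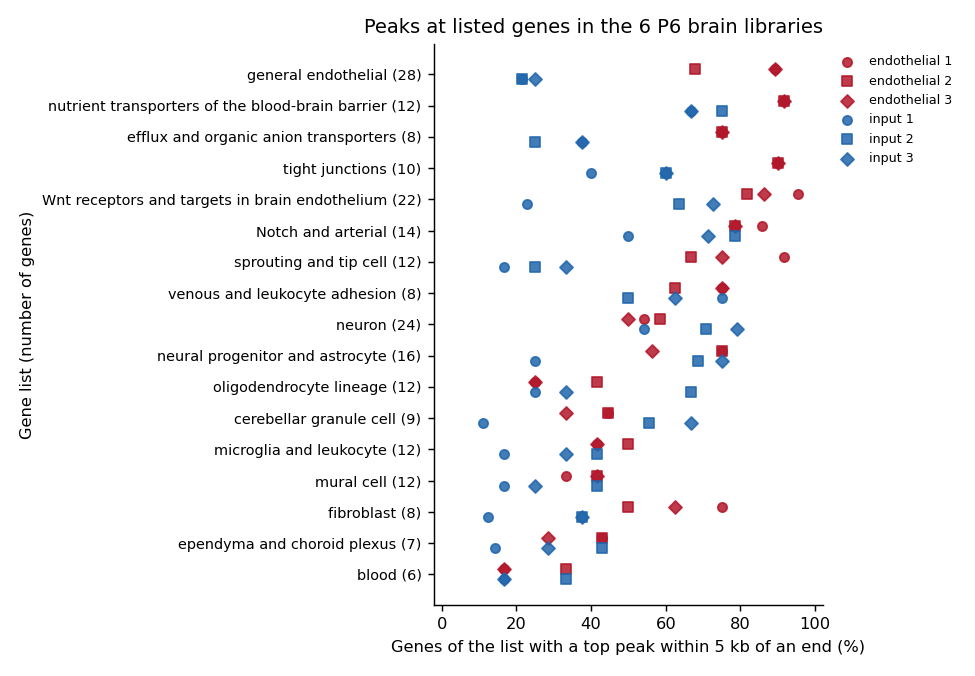
Share of each list's genes with a top peak within 5 kb of a gene end (horizontal axis, percent), by list and number of genes (vertical axis), in the 6 libraries, red for endothelial and blue for input, with a marker shape per replicate. The general endothelial and sprouting lists separate the groups, with 19 to 25 of 28 and 8 to 11 of 12 genes against at most 7 and 4, and the neuron list does not. The nutrient, efflux, tight junction, Wnt and fibroblast lists separate them as well.

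The genes with the most nearest regions were not those of the marker lists alone. Adgrl2, an adhesion receptor, Ets1, a founding ETS factor, and Rapgef5, an exchange factor of Rap GTPases, were each nearest to 14 endothelial-only regions, followed by the transcription factor genes Klf6 with 13, Foxp1 with 12 and Mecom with 11. Sgms1 and Tcf4 had 11 each, and Auts2, Chn2, Myc, Myo10, Rapgef2 and Zmiz1 had 10 each. Of these 14 genes Mecom and Chn2 had no input-only region, and the others had 1 to 6, with 6 at Auts2, 4 each at Myo10 and Zmiz1 and 3 each at Adgrl2 and Myc. Merged regions of any class nearest to these genes numbered 21 to 48, with 48 at Adgrl2 and 47 at Myc. Among input-only regions Basp1, a growth cone protein, was nearest to 14, Usp29 to 12, Cyria to 10, and Nav3, Nrxn3 and Ptprn2, genes of neurite guidance, synapses and secretory vesicles, to 9 each. Nav3 also had 5 endothelial-only regions, and the other 5 had 0 or 1. Leaving out 1 library gave as few as 5 regions at Adgrl2 (without endothelial 1), 8 at Ets1 and 7 at Rapgef5 (both without endothelial 3), and 6 at Basp1 (without input 3). Without endothelial 3 Klf6 kept 6, Foxp1 7, Auts2 and Myc 5 each, Myo10 4, and Sgms1 and Chn2 3 each. Without endothelial 1 Mecom kept 5, Tcf4 4 and Zmiz1 6, and Rapgef2 kept 7 at the fewest, without endothelial 2. Among the other input genes, Nav3 kept 2 without input 2, while without input 3 Nrxn3 kept 3, Ptprn2 5, Cyria 6 and Usp29 9.

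Regions held by all 3 libraries and by no full list of the other side were ranked by fold. The first endothelial one lay at chr1:105199265-105199792, 77389 bp from the nearer end of Rnf152, with a fold of 7.53, 9.28 and 10.1 in endothelial 1, 2 and 3. A region inside Robo1, a receptor of Slit guidance cues, at chr16:72538167-72538555 (place 2) had 6.09, 8.47 and 8.41. A region inside Ebf1, a transcription factor gene, at chr11:44975132-44975609 (place 6) had 6.41, 7.16 and 7.97. One inside Rspo3, which encodes a potentiator of Wnt signalling, at chr10:29508179-29508606 (place 13) had 5.62, 7.89 and 7.03. Endothelial 1 had the lowest fold at each of these 4 regions. The first input region lay at chr14:55204998-55205593, nearest to Dhrs2, with a fold of 10.1, 7.90 and 7.24 in inputs 1, 2 and 3. One inside Ralyl at chr3:13896300-13896633 (place 15) had 9.36, 5.40 and 5.85. One 202795 bp from the nearer end of Eya1, a developmental phosphatase gene, at chr1:14513443-14514218 (place 11) had 8.03, 5.87 and 5.92.

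Libraries that played no part in choosing the regions test whether the contrast recurs. At P6, the 8685 endothelial-only regions of brain were covered by a top peak (the first 40943 of each list) in 60.1% of cases on average in endothelial libraries of heart, kidney, liver, lung and retina (n = 11), and in 29.1% in the input libraries of these organs (n = 13). The difference of 31.0 percentage points had an exact two-sided permutation p of 1.39e-05 within organs, the smallest that 72000 labellings allow, and 8.33e-05 after Benjamini-Hochberg adjustment over 6 such tests. The lowest endothelial library was above the highest input library in 5 of 5 organs. Retina had the widest gap, with 62.6 to 67.7% in the 3 endothelial and 11.96 to 15.6% in the 3 input libraries. Lung had the narrowest, with 62.3 and 63.5% against 48.3 to 49.0%. With full lists the difference was 20.6 points (exact permutation p = 0.000958). All merged brain regions differed much less: in heart, for example, 39.8% were covered in endothelial and 35.1% in input libraries.

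Input-only regions of brain went the other way at P6, with 12.3% covered in endothelial and 22.2% in input libraries of the other organs. The difference was -9.92 points (exact permutation p = 2.78e-05, adjusted 8.33e-05), with no overlap in 4 of 5 organs and overlap in liver. Retina input 2 weighed on this value. It covered 90.1% of the brain input-only regions, against 34.2 and 34.9% in retina inputs 1 and 3. Its Jaccard index was 0.744 with brain input 2 and 0.662 with brain input 3, where retina inputs 1 and 3 had 0.388 to 0.417. A top peak lay near 3 of 12 retina genes in it, without the photoreceptor gene Crx, against 10 to 11 in the other 5 retina libraries and 1 to 4 in the brain ones. The library labelled retina input 2 therefore goes against its label by these genes, which were chosen after its values were seen. Without it the difference was -6.22 points (exact permutation p = 5.56e-05), and that of the endothelial-only regions was 31.2 points (p = 2.78e-05). Without retina as a whole the input-only difference was -4.79 points (exact permutation p = 0.000556), with regions from the full lists -2.61 points (p = 4.17e-05), and with full lists in the other organs -15.6 points (p = 0.000625).

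At E12, endothelial-only regions of P6 brain were covered in 60.1% of cases in endothelial libraries of brain, heart and trunk (n = 11) and in 18.6% in their inputs (n = 3). The exact permutation p was 0.01, the smallest possible with 100 labellings (adjusted 0.012). In E12 brain itself the 3 endothelial libraries covered 69.1, 68.5 and 71.3% and the input library 14.5%. Input-only regions were covered in 14.2 and 32.5% on average (exact permutation p = 0.01, adjusted 0.012), and in E12 brain in 17.7, 14.5 and 12.1% of cases in the endothelial libraries against 43.4% in the input. Of the 3 E12 organs, all had endothelial and input values apart for both classes, with 1 input library in each. With regions from the full lists the differences were 26.7 points for endothelial-only and -6.83 points for input-only regions, against 41.4 and -18.2 points, each with an exact permutation p of 0.01.

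In adult brain the endothelial-only regions of P6 were covered in 68.2 and 70.8% of cases in the 2 endothelial libraries and in 11.9% in the input library, with no test for 2 libraries against 1. Input-only regions were covered in 12.2 and 13.6% against 53.2%. With full lists the endothelial minus input difference was 37.2 points for endothelial-only and -70.2 points for input-only regions, against 57.6 and -40.2 points. In adult heart, kidney, liver, lung and retina the endothelial-only regions were covered in 27.7% of cases in endothelial (n = 10) and 11.6% in input libraries (n = 9), with lists cut at 19464 peaks (exact permutation p = 0.000257, adjusted 0.000514). With full lists the difference was 12.8 points and its exact permutation p was 0.0532, and with regions from the full lists it was 7.64 points (exact permutation p = 0.000514), against 16.1 points. Adult retina was low on both sides, with 4.92 and 16.9% in endothelial and 3.80 and 4.10% in input libraries. Input-only regions were rarely covered in adult organs, in 2.63 and 3.45% of cases, and the difference did not pass the test (exact permutation p = 0.0895). It passed without kidney endothelial 1 (exact permutation p = 0.0293, -0.937 points) or without lung input 1 (exact permutation p = 0.0499, -0.906 points), and with full lists the difference was -7.95 points (exact permutation p = 0.12). Shares from different ages rest on lists of different length and are not compared with each other.

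**Figure D3:**
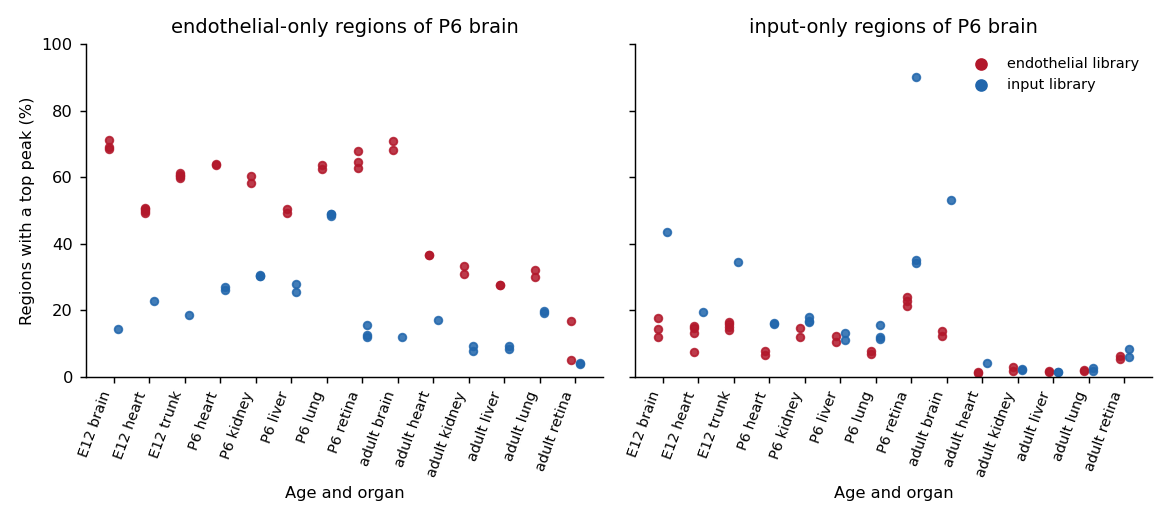
Share of the P6 brain regions that hold a top peak (vertical axis, percent) in libraries not used to choose them, by age and organ (horizontal axis), 1 point per library, red for endothelial and blue for input; the left panel shows endothelial-only and the right panel input-only regions. Endothelial libraries lie above inputs for endothelial-only regions in each column, and the single point at 90.1% is retina input 2.

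Peaks in the P6 endothelium of other organs divide the endothelial-only regions by how widely they are open. Of 8685, 3543 (40.8%) had a top peak in an endothelial library of all 5 other organs, and 977 (11.2%) in none. Retina was the sole other organ for 798, so 1775 regions (20.4%) were seen in brain, or brain and retina, and not in heart, kidney, liver or lung endothelium. Gene lists differed in this share, which is a description without a test. Near general endothelial genes 76 of 114 regions (66.7%) were in all 5 organs and 7 (6.14%) were in brain or retina only. Near nutrient transporters 2 of 22 were in all 5 organs and 10 (45.5%) in brain or retina only. Wnt genes had 22 of 56 (39.3%) and efflux genes 8 of 25 (32.0%) in brain or retina only, sprouting genes 4 of 30, and tight junction genes 6 of 32.

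Single genes show the pattern. The Tie1 and Robo4 promoter regions had a peak in the endothelium of all 5 organs, and so had those of Egfl7 and Eng. At Slc2a1, 3 of 4 endothelial-only regions had a peak in retina endothelium and none in heart, kidney, liver and lung. The Slco1c1 promoter region, at chr6:141523842-141524594, with a fold of 5.50, 5.65 and 5.83 in endothelial 1, 2 and 3, was also seen in retina endothelium alone. At Foxq1, 3 of the 7 regions were seen in retina alone. At Lrp5, a Wnt co-receptor used outside the brain as well, all 4 regions were in all 5 organs. Abcb1a had no region of this kind: its 5 endothelial-only regions were in 2 to 4 of the other organs.

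**Figure D4:**
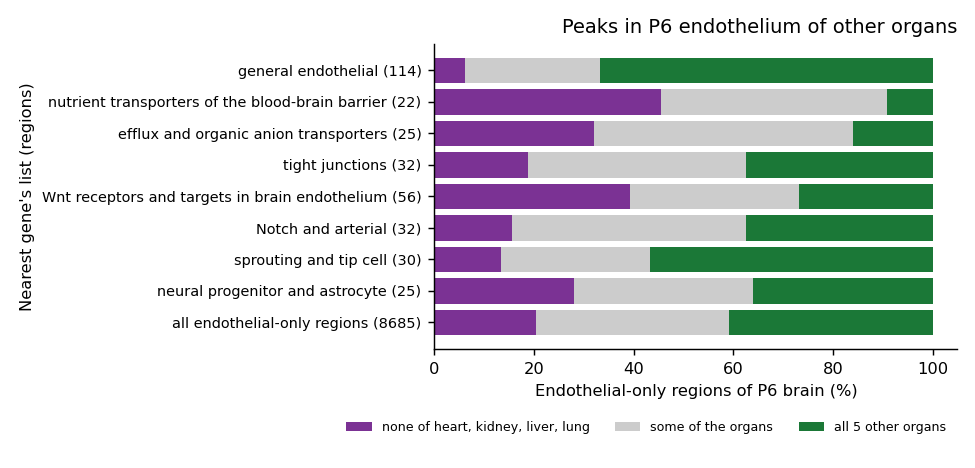
Share of endothelial-only regions (horizontal axis, percent) by the list of the nearest gene and its number of regions (vertical axis; lists with at least 20 regions), split by where P6 endothelium of other organs had a top peak. Purple marks regions seen in none of heart, kidney, liver and lung, which make up 45.5% for nutrient transporters and 6.14% for general endothelial genes.

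Letters in the promoters add a readout that the rule did not use. A promoter window was assigned to a class when at least 150 of its 300 bases lay in a region of it, which gave 540 windows of 484 genes for endothelial-only and 214 windows of 192 genes for input-only regions, out of 21262 windows of 17491 genes. AGGAAG, searched on both strands, was in 43.0% of endothelial-only, 27.6% of input-only and 34.4% of all windows. CAGATG was in 14.1, 22.9 and 14.6%, and CAGCTG in 18.9, 23.8 and 15.6%. The AP-1 letters TGANTCA were in 7.22, 4.67 and 6.99%, and the TCF/LEF letters CTTTGAT in 2.04, 2.34 and 3.22%. Of the windows under any merged region, 31.4% held AGGAAG, 10.6% CAGATG, 14.7% CAGCTG and 3.99% TGANTCA, each below the endothelial-only share. CTTTGAT was in 2.32% of them, above that share. The SOX letters AACAAT were in 5.93, 4.67 and 9.05%, and the forkhead letters TGTTTAC in 2.59, 1.87 and 3.01%. Both were in a lower share of endothelial-only than of all windows. Windows under any merged region were lower still than endothelial-only ones, with 5.11% for AACAAT and 2.38% for TGTTTAC. CCGGAAGT, a longer ETS site that contains no AGGAAG, was in 0.741% of endothelial-only, 2.34% of input-only and 5.15% of all windows, and in 8.81% of those in any merged region. ACAGGAAGT, a longer ETS site that does contain AGGAAG, was in 1.11% of endothelial-only and 0% of input-only windows. Its share was 0.969% of all windows and 0.990% of those in any merged region, so it hardly differed from the endothelial-only one. The median window had 14 CpG in endothelial-only, 13 in input-only, 13 in all and 22 in windows under any region, and the part of base composition was not tested. These shares describe promoters, while most regions lay away from gene ends and their sequences were not analysed here.

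RNA from another preparation was set beside the regions. A single-cell library of P8 cortex, enriched with beads against the endothelial surface protein CD31, holds 7305 barcodes and 67.3 M UMIs, with a median of 6065 per barcode. Counts were summed over all barcodes into counts per 1000000 UMIs (CPM), and as there is 1 library there is no test. Genes nearest to an endothelial-only and to no input-only region had a median of 15.6 CPM (3020 matched genes). Those nearest to an input-only and to no endothelial-only region had 0.639 CPM (1920 genes), those near neither class 1.07 CPM, and all protein-coding genes 2.62 CPM. At 10 CPM or more were 57.6% of the first set, 27.0% of the second and 38.2% of all. With at least 3 regions of the class the medians were 38.5 CPM (404 genes) and 0.342 CPM (199 genes).

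Genes named above spanned this range. Tie1 had 81.8 CPM, Abcb1a 265 CPM, Slc2a1 786 CPM, Slco1c1 1564 CPM and Cldn5 4748 CPM. Among the genes with the most endothelial-only regions, Ets1 had 486 CPM, Foxp1 272 CPM, Adgrl2 214 CPM, Klf6 213 CPM, Mecom 155 CPM and Rapgef5 86.3 CPM, while Myc had 6.33 CPM. Usp29 had 0.119 CPM, Ptprn2 0.0446 CPM, Nrxn3 0.951 CPM, Basp1 3.39 CPM and Sox2 2.44 CPM, and Neurod2 and Neurod6 had 2 and 1 UMIs in all. Other genes with many input-only regions had more RNA. Reep3, with 8 input-only and 5 endothelial-only regions, had 320 CPM, and Map3k7, with 8 and 2, had 30.8 CPM. Each kept 2 input-only regions at the fewest, Reep3 without input 2 and Map3k7 without input 3. Basp1 and Nrxn3, with less RNA, also had 1 endothelial-only region each. Some genes with high RNA had no endothelial-only region. Mfsd2a, with 758 CPM, had a top peak within 5 kb in all 3 endothelial libraries and in at least 1 input, and Slc38a5, with 731 CPM, had none in any of the 6. Foxl2 had 1.23 CPM and Robo1 1.16 CPM, with at least 1 endothelial-only region each. The library holds RNA of other cells, with Hba-a1 (haemoglobin) at 4858 CPM, Ttr (choroid plexus) at 3636 CPM and Rgs5 (pericytes) at 477 CPM, and the part of such RNA in single values was not tested. The 24 neuronal genes had a median of 0.268 CPM and the 28 general endothelial genes one of 205 CPM.

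**Figure D5:**
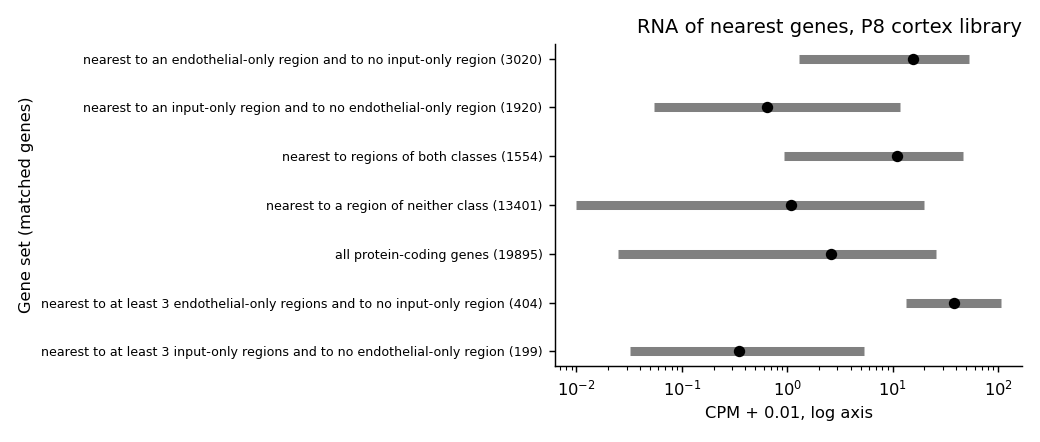
Median (point) and quartiles (bar) of CPM plus 0.01 on a log axis (horizontal) in the P8 cortex library, for genes grouped by the class of the nearest regions, with the number of matched genes (vertical axis). The medians are 15.6 CPM for genes nearest to endothelial-only regions, 0.639 CPM for input-only and 2.62 CPM for all protein-coding genes.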

How the data were processed

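The 6 libraries are ATAC-seq of P6 brain nuclei, 3 endothelial and 3 input. Per the submitters' processing notes, which name Bowtie2, SAMtools 1.13, Picard and MACS2, reads were placed on mm10. The authors ran MACS2 2.1.2 on each library by itself, without a control library, as broad peaks (reads shifted by -100 bp and extended to 200 bp, q-value cutoffs 0.05 and 0.1), per the file headers. The deposited lists give a fold ratio over local background and −log10 of the p-value and q-value for each peak. The deposited single-cell files give counts of UMIs per barcode, and 8 barcodes occur in both the P8 and the adult library. Doublets were not removed, since counts were summed over all barcodes.

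Lists were cut to equal length by −log10 q-value and merged at 1 bp of overlap. The gene table (RefSeq, GRCm38.p6, 21883 protein-coding genes) holds no strand, so the nearest gene is that of the nearer gene end, not of the start as planned. Sequences are from RefSeq, GRCm38.p6. Shares in other libraries were compared by exact two-sided permutation of endothelial and input labels within organs. Scripts used Python 3.11.15 with pandas 2.3.3, numpy 2.4.6 and scipy 1.17.1, and were tested on simulated data. Named genes are the 15 regions per side ranked by fold among those absent from the other side's full lists, the 10 genes per side with most regions (ties included), of which the text gives the leading ones, and members of fixed lists. The regions, lists and genes were chosen with earlier results of these data known. RNA-seq tables were not used here, since their transcripts are not paired with genes. Alternatives were the full lists, other cutoffs and overlaps, leaving out libraries or organs, and a replicate block. Some items are not reported here.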

Additional observations from a re-analysis of the deposited data

Results flagged for a closer look

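Input-only regions of P6 brain differed in direction between adult heart and adult liver. In heart both endothelial libraries covered a smaller share than the input library, with a difference of -2.72 percentage points. In liver both endothelial libraries covered a larger share than the 2 inputs, with a difference of 0.236 points. The liver shares were low, with 1.52 and 1.82% against 1.43% in each input. Over all merged regions the endothelial libraries were above the inputs in both organs, by 1.99 points in heart and 5.52 points in liver. Of the 5 adult organs, the endothelial mean was higher in 2 and lower in 3. Kidney was the other higher one, by 0.253 points, with overlapping libraries. The difference between the organs was not tested, and the heart has 1 input library.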

How the results depend on the processing

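The number of regions followed the cutoff. Endothelial-only regions numbered 14188 with the full deposited lists, 3442 with 13580 top peaks per library, 3937 when all 3 libraries were required and 2880 when no peak was allowed in the full lists of the inputs. Input-only regions numbered 23638, 2203, 1503 and 1003 under these settings, and 9583 when only endothelial 3, which shares its read processing with the inputs, was used. Leaving out 1 library gave 4505 to 9469 endothelial-only and 1904 to 8534 input-only regions. Nearest genes of input-only regions numbered 7627 with full lists. Leaving out 1 library gave 3164 to 5211 endothelial-only and 1535 to 4770 input-only nearest genes, 25 to 27 of 28 general endothelial genes and 6 to 15 of 24 neuronal ones. The endothelial minus input difference in general endothelial genes with a peak was 16.7 genes, 5.00 with a 50 kb window and 5.67 with full lists. In adult brain the difference between endothelial and input libraries was 37.2 points for endothelial-only and -70.2 points for input-only regions with full lists, against 57.6 and -40.2 points. The median CPM of genes nearest to input-only regions was 1.81 in the adult cortex library and 0.342 in P8 for genes with at least 3 regions, and 38.5 for those near at least 3 endothelial-only regions. At P6 both shares kept their direction and side of the threshold under all 39 alternatives each, with differences of 20.6 to 35.7 and of -15.6 to -2.61 points. In adult organs the endothelial-only difference lost the threshold with full lists alone (12.8 points, exact permutation p = 0.0532) and was lowest with regions from the full lists (7.64 points, p = 0.000514). The adult input-only difference of -0.821 points passed it at -0.448 points with regions from the full lists and at -1.54 points with regions chosen without brain endothelial replicate 2 and ranged from -1.06 to -0.583 points with 1 library left out. Over all its alternatives it ran from -7.95 points with full lists (exact permutation p = 0.12) to -0.291 points with regions chosen without brain input replicate 2 (p = 0.584), with -0.345 points without heart (p = 0.469). At E12 leaving out heart gave 48.5 and -24.0 points and leaving out trunk 41.2 and -17.7 points, each with an exact permutation p of 0.05, the smallest those labels allow, and regions from the full lists gave 26.7 and -6.83 points (p = 0.01). Whether same-numbered libraries are pairs is not given in the labels. At P6 their deviations had the same sign in 4 and 5 of 9 pairs, and in adult organs in 6 and 6 of 9, with opposite signs in 2 and 0, while at E12 the single inputs give no deviation. With a replicate block the exact permutation p at P6 was 0.00391 for both classes, the smallest possible, in adult organs it was 0.00391 and 0.172, and at E12 the differences were 41.1 and -18.1 points with p = 0.25, also the smallest possible with 3 pairs. The P6 pairs are of heart, kidney, lung and retina, since no P6 liver libraries share a number. The P6 block therefore leaves out liver, where the input-only shares overlapped. The share of AGGAAG windows was 42.6% at 1 bp of overlap and 42.8% in regions of all 3 endothelial libraries, both over largely the same windows. Regions chosen without single brain libraries, libraries of other organs left out in turn and the promoter settings were added after seeing the data.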
